A study of Rattus norvegicus with 21 samples.

Results

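The 3 libraries described here, PX 36, PX 38 and PX 58, are islet RNA of Lewis rats that had undergone a 90% partial pancreatectomy (PX) and whose titles carry a BG of 121, 119 and 114. BG is read here as blood glucose averaged before sacrifice, and the labels give it no unit. They were picked by that value as the PX columns with a BG of 114 to 121, a choice made with earlier results of these data known. They make up 3 of the 21 libraries of the study. They are called the mild PX libraries and were set against all 10 sham libraries, from sham-operated Lewis rats with a BG of 82 to 104. The remaining 8 libraries are PX libraries as well, 5 with a BG of 101 to 110 (the near-normal PX libraries) and 3 with a BG of 140 to 174 (the high PX libraries). All 21 titles give 4 weeks, and all labels give the same strain, tissue, RNA type (polyadenylated) and a directional library kit. Every title carries a different animal number and the mark Inc_YES, which the labels do not explain. The sample description gives 4 to 5 weeks without saying whether that is the age of the rats or the time after surgery, and sex is not in the labels used here. Nothing beyond the animal number says that libraries came from separate rats. The p-values therefore measure the spread between these libraries.

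Islets of Langerhans are clusters of hormone-secreting cells, mostly beta cells that make insulin, with alpha cells (glucagon), delta cells (somatostatin) and PP cells (pancreatic polypeptide), together with resident macrophages, vessels and a thin capsule of stromal cells. Removing most of the pancreas leaves a small remnant whose beta cells must meet the insulin demand of the whole animal. Mature beta cells keep a set of genes such as lactate dehydrogenase A and low-Km hexokinases nearly silent, the so-called disallowed genes, and loss of that silence together with lower levels of beta cell transcription factors is a known feature of islets held at high glucose.

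Levels are given as CPM, a gene's count relative to its library's total after scaling by the TMM factor, and a gene was called when its adjusted p (Benjamini-Hochberg over all genes tested) was under 0.05 in edgeR's quasi-likelihood test. The library total was 6054177 reads in PX 36, 5225113 in PX 38 and 9056756 in PX 58, within the range of 4001908 to 13187959 over all 21. The mild PX and the sham libraries were compared in 4 library measures by exact permutation tests (two-sided, smallest possible p = 0.0035), and none passed. The mean total was 6778682 against 7051087 (p = 0.843, adjusted p = 0.843). Genes with a read numbered 17334 against 16827 (p = 0.0699, adjusted p = 0.280). Mitochondrial genes took 3.11% against 4.34% of the counts (p = 0.196, adjusted p = 0.392), and markers of acinar cells, the enzyme-secreting exocrine cells, took 13.2% against 10.9% (p = 0.741, adjusted p = 0.843). The acinar share varied widely within both groups, from 6.31% (PX 36) and 9.06% (PX 38) to 24.1% (PX 58), and from 0.650% to 23.9% among sham libraries. Sham 46 to 50 had 13.2% to 23.9%, and sham 21, 22, 24, 73 and 74 had 0.650% to 6.16%. Each of these sets of sham libraries also served alone as controls below. Sham 46 and PX 58 stood apart. The former had a macrophage score (mean log2 CPM of the markers) of 2.61 where the other 9 sham libraries had 1.37 to 1.80, and a mesenchymal score of 5.09 against 3.44 to 4.19. PX 58 had the highest macrophage score (5.31) of the 3 mild PX libraries and the lowest BG. Counts that change by more than 1.5 times when either is left out are given both ways.

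Islets of the mild PX libraries held far more RNA of macrophage, complement, antigen-presentation and matrix genes than sham islets, more RNA of several disallowed genes, and less RNA of somatostatin. Of 13884 genes tested, 1405 (10.1%) were higher and 526 (3.79%) were lower, 13.9% in either direction. All 3 mild PX libraries lay above every sham library for 788 genes (5.68% of those tested) and below every sham library for 457 (3.29%). The counts of list members given below are to be read against these shares. The increases were the larger changes. Among the genes called higher, the median log2 fold change was 1.52, 1055 exceeded 1, 467 exceeded 2 and 199 exceeded 3. Among those called lower, the median was -0.68, and 128 fell by more than 1 on the log2 scale. The median over all genes tested was -0.015. Without PX 58 the counts were 747 higher and 112 lower, without PX 36 the lower count was 259, and without sham 46 they were 1921 higher and 975 lower.

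Gpnmb, a membrane glycoprotein of lipid-laden and phagocytic macrophages, had the largest increase of the called genes that averaged 10 CPM or more. It measured 76.8 CPM in PX 36, 14.5 in PX 38 and 544 in PX 58, against 0.763 to 4.26 (median 1.32) in the sham libraries, a log2 fold change of 7.08 ± 0.75 (SE; edgeR adjusted p = 5.87e-05). Mmp12, macrophage elastase, measured 93.9, 13.1 and 304 CPM against 0.355 to 3.61 (median 1.23), with a log2 fold change of 6.67 ± 0.63 (edgeR adjusted p = 2.01e-05). For both genes the groups did not overlap, and the 3 mild PX libraries themselves spanned a wide range with PX 38 lowest and PX 58 highest. Next in size of change came Lgals3 (galectin-3, a macrophage lectin) at 5.84, C3 (the central complement component) at 5.82, Spp1 (osteopontin) at 5.38, Itgad (an integrin of macrophages) at 5.37, Postn (periostin, a matrix protein) at 5.11, Tnc (tenascin-C) at 4.95, Il33 (an alarmin of stromal cells) at 4.91 and Lyz2 (lysozyme) at 4.78 on the log2 scale. C3 did not follow the same order, with 35.7 CPM in PX 36, 73.1 in PX 38 and 159 in PX 58, against 0.255 to 8.20 in sham libraries. Itgad reached 21.6, 6.98 and 93.2 CPM, and no sham library exceeded 1.69. All 10 genes were called under every alternative setting tried.

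**Figure D1:**
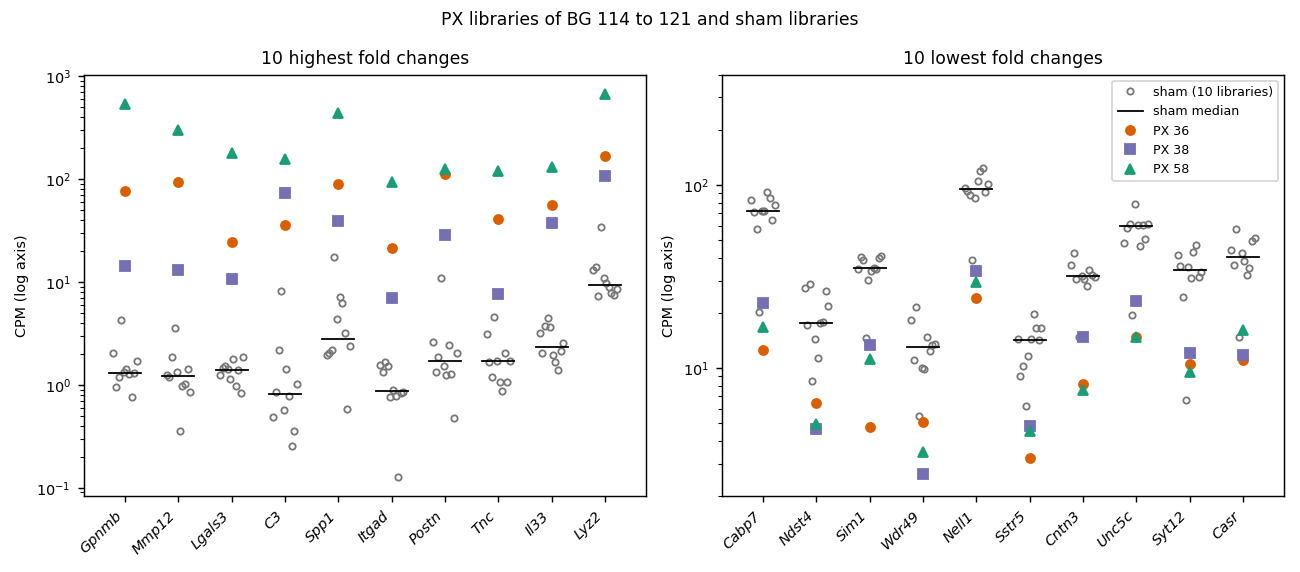
CPM on a log axis of the 10 genes with the highest and the 10 with the lowest log2 fold change, taken from called genes that averaged 10 CPM or more; open circles are the 10 sham libraries, the line is their median, and filled symbols are PX 36, PX 38 and PX 58. For the genes on the left all 3 mild PX symbols lie above every sham circle, with PX 58 highest in each; on the right sham 46 is the lowest circle for all 10 genes, at 20.1 CPM for Cabp7 against a sham median of 72.2.

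The promoter of Gpnmb is shown because the gene leads the increases. The window is taken from RefSeq (build GRCr8, chr4:79340878-79341177, plus strand), and the capitals mark the letters TGANTCA, the core bound by AP-1 factors, at bases 164 to 170 of the window.
Gpnmb: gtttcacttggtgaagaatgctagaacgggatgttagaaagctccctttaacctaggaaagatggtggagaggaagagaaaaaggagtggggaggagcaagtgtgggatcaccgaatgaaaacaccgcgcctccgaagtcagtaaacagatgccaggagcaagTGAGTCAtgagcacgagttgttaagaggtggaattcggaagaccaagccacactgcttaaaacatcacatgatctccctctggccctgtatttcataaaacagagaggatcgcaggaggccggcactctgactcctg

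Promoter windows of 300 bases (250 before to 50 after the start) were found by symbol for 9755 of the 13884 tested genes, and 4 motifs were searched on both strands. TGANTCA stood in 86 of 1018 windows of genes called higher (8.45%), in 4.03% of those of genes called lower, in 4.68% of all tested genes' windows and in 7.33% of all 27457 windows listed. GAGGAAGT, a core of the macrophage factor PU.1, was found in 4.72% of the windows of genes called higher, 1.51% of those called lower and 2.57% of those tested. CACGTG, the E-box core, stood in 6.58%, 8.56% and 9.04%, and TGACGTCA, the cyclic AMP response element, in 2.06%, 2.27% and 3.21% in the same order. These are matches of letters, given as a description.

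Macrophage genes rose as a group. All 15 markers tested were called higher, with a median log2 fold change of 2.90, where 10.1% of all genes tested were called higher, and for 14 of them the groups did not overlap. Their summed level was 307 to 1240 CPM in the mild PX libraries and 49.6 to 153 CPM in the sham libraries. Csf1r, the receptor on which macrophages depend, measured 75.4, 50.5 and 133 CPM in PX 36, PX 38 and PX 58 against 10.6 to 31.2 (median 13.1), a log2 fold change of 2.65 ± 0.29 (edgeR adjusted p = 1.73e-05). Msr1, a scavenger receptor, measured 9.84, 3.49 and 20.6 CPM, and the sham libraries did not pass 0.512. Tyrobp, an adaptor of myeloid receptors, was at 6.19, 6.98 and 26.9 CPM against 0.169 to 1.75. Cx3cr1 (the fractalkine receptor) rose by 2.67 ± 0.23 and Aif1 (a macrophage calcium-binding protein) by 3.20 ± 0.31 on the log2 scale. PX 58 was highest for all 15 markers and PX 38 lowest for 13. Without PX 58, 14 were still called. In bulk RNA, more cells of a type and more RNA per cell cannot be told apart.

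Other leukocytes left fewer reads. Of 17 lymphocyte markers, 3 passed the filter on low counts, and these were called higher: Ptprc, the pan-leukocyte phosphatase CD45, at 27.6, 10.6 and 49.6 CPM against 2.55 to 6.01; Cd4, which rat macrophages also carry, by 1.55 ± 0.23; and Lck, a T cell kinase, by 1.45 ± 0.29 on the log2 scale (lost without PX 58, edgeR adjusted p = 0.0760). These 3 genes summed to 33.1 to 88.2 CPM against 10.9 to 23.8, with the markers that failed the filter left out. Cd52 had no read in any of these libraries. With no filter on low counts, 7 lymphocyte markers were called higher. Of 7 neutrophil markers only Csf3r, the receptor for granulocyte colony-stimulating factor, passed the filter. It was called higher by 2.65 ± 0.61, and failed the filter when sham 21, 22, 46, 49, 50 or 73 was left out. Csf3r alone measured 1.33 to 2.11 CPM against 0 to 1.21, and no sum over the list was taken. Mpo and Np4 had no read.

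Genes of lipid handling and lysosomes, many of them typical of lipid-laden macrophages, were called higher for 17 of 25 tested (median log2 fold change 1.75) and lower for none. Trem2, the lipid-sensing receptor of such cells, was at 3.51, 1.496 and 14.0 CPM against 0 to 0.765 in sham libraries. Ctsk (cathepsin K) measured 24.5, 11.6 and 199 CPM against 3.07 to 6.34, and Ctss (cathepsin S) rose by 3.15 ± 0.35. Fabp5 (a fatty acid carrier) rose by 3.32 and Apoe by 1.85 on the log2 scale. Lamp1 and Lamp2, general lysosome genes, were little different, at 0.01 and -0.03, neither called.

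Antigen presentation and complement genes rose as well. In the first, 11 of 14 tested genes were called higher (median 3.08) and none lower, where 10.1% of all genes tested were called higher. Cd74, the invariant chain of class II molecules, stood at 445, 258 and 649 CPM against 35.8 to 95.2 (median 53.7), a log2 fold change of 3.04 ± 0.26 (edgeR adjusted p = 3.36e-06). RT1-Da, RT1-Ba and RT1-Bb, rat class II chains, rose by 3.56, 3.14 and 3.11, and Ciita, their master regulator, by 3.13. The class I genes RT1-A1 and B2m rose by 0.84 and 1.54, and RT1-A2 (0.67), Tap2 (0.63) and Tapbp (0.45) were not called. RT1 genes have near-identical copies, so their counts are uncertain. Of 16 complement genes 14 were called higher (median 2.44), among them C1qc (19.3 to 33.3 CPM against 3.37 to 6.996) and C1r (38.7 to 55.1 against 7.85 to 15.03). C1qc is also one of the macrophage markers counted above, so the complement and macrophage counts are not independent. C5 (0.61) and Serping1 (0.91) were not called. The counts of these lists moved by less than 1.5 times in every setting, leaving out PX 58 or sham 46 included.

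Inflammatory mediators were called higher for 9 of 14 tested (median 1.41), where 10.1% of all genes tested were called higher. Ccl2, a chemokine that draws monocytes, measured 17.7 CPM in PX 36, 4.65 in PX 38 and 82.5 in PX 58 against 0.194 to 1.45, with a log2 fold change of 5.66 ± 0.60 (edgeR adjusted p = 2.36e-05). Ccl7, its neighbour in function, measured 22.5, 4.99 and 71.2 CPM against 0.887 to 2.51. Il1rn, the antagonist of the interleukin-1 receptor, rose by 5.76 ± 0.57, and Vcam1 and Icam1, adhesion molecules, by 3.10 and 3.08. The NF-kappaB feedback genes Nfkbia (0.84), Tnfaip3 (0.91) and Relb (0.80) were not called. Interferon-responsive genes were called higher for 9 of 23 (median 0.87), led by Irf8 (2.24 ± 0.41, a transcription factor that macrophages also use), Gbp2 (1.82 ± 0.19) and Mx1 (1.79 ± 0.38). Without PX 58 only 2 of these were called, and 2 with sham 46 to 50 as the only controls.

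Extracellular matrix genes were called higher in 37 of 39 cases (median 2.07) and lower in none, and 25 did not overlap with sham. Of all genes tested, 10.1% were called higher and 5.68% lay above every sham library. Col3a1, a fibrillar collagen, measured 1169, 528 and 1401 CPM against 83.2 to 380, a log2 fold change of 3.05 ± 0.42 (edgeR adjusted p = 2.50e-04). Vcan (versican, a proteoglycan) was at 19.1, 6.98 and 89.4 CPM against 0.177 to 1.86, and Timp1, an inhibitor of matrix proteases, at 16.7, 6.98 and 137 against 0.966 to 4.70. Basement membrane genes changed less, with Col4a1 at 0.89, Lamb1 at 0.86 and Lamc1 at 0.72, all called, and Timp3 (0.28) and Col14a1 (-0.02) were not. With sham 46 to 50 as the only controls 21 were called.

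Markers of stromal cells (fibroblasts, stellate cells and pericytes) were called higher for 12 of 14 (median 1.84), where 10.1% of all genes tested were. Matrix genes such as Col3a1 and Postn are themselves among these markers, so the matrix and stromal counts are not independent. The markers summed to 1071 to 2458 CPM against 289 to 935 CPM in sham libraries, the highest of these being sham 46. Lum (lumican) rose by 3.26 ± 0.37, Dcn (decorin) by 2.29 ± 0.21 and Acta2 (smooth muscle actin) by 1.81, while Cspg4 (0.29) and Pdgfrb (0.76), both pericyte genes, were not called. Without PX 58 the count was 7, and 6 with sham 46 to 50 alone as controls. Whether the matrix genes differ apart from these markers was not tested. Of 24 genes of the TGF-beta and IGF axis 12 were called higher (6 without PX 58), among them Igf1 (18.0, 11.3 and 42.6 CPM against 3.07 to 7.98), Inhba (an activin subunit, 2.47 ± 0.41), Igfbp6 (3.65) and Igfbp5 (1.81 ± 0.29). The receptors Igf1r (-0.46), Igf2r (-0.07) and Tgfbr1 (-0.37) were not called.

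Of 10 endothelial genes 3 were called higher. Tie1, an endothelial receptor, was at 59.1, 59.7 and 75.3 CPM against 28.8 to 43.9, a log2 fold change of 0.91 ± 0.14 (edgeR adjusted p = 2.33e-04), and Tek and Cdh5 rose by 0.75 and 0.60. Esm1, a VEGF-responsive gene, was at -0.67 ± 0.22 and Vegfa itself at -0.37 ± 0.12, neither called. The endothelial count was 6 without sham 46 and 1 without PX 58. Among duct genes 5 of 9 were called higher (3 without PX 58), with Cftr, the chloride channel of duct cells, at 16.9, 8.15 and 28.3 CPM against 0.708 to 5.75 and Krt19 at 24.5, 45.4 and 52.9 against 11.4 to 29.2. No acinar gene of 26 was called, with a median of 0.35. Their sum was 53732 to 236777 CPM against 5492 to 250057, and with the 5 sham libraries of low acinar share (sham 21, 22, 24, 73 and 74) as controls 9 were called higher.

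**Figure D2:**
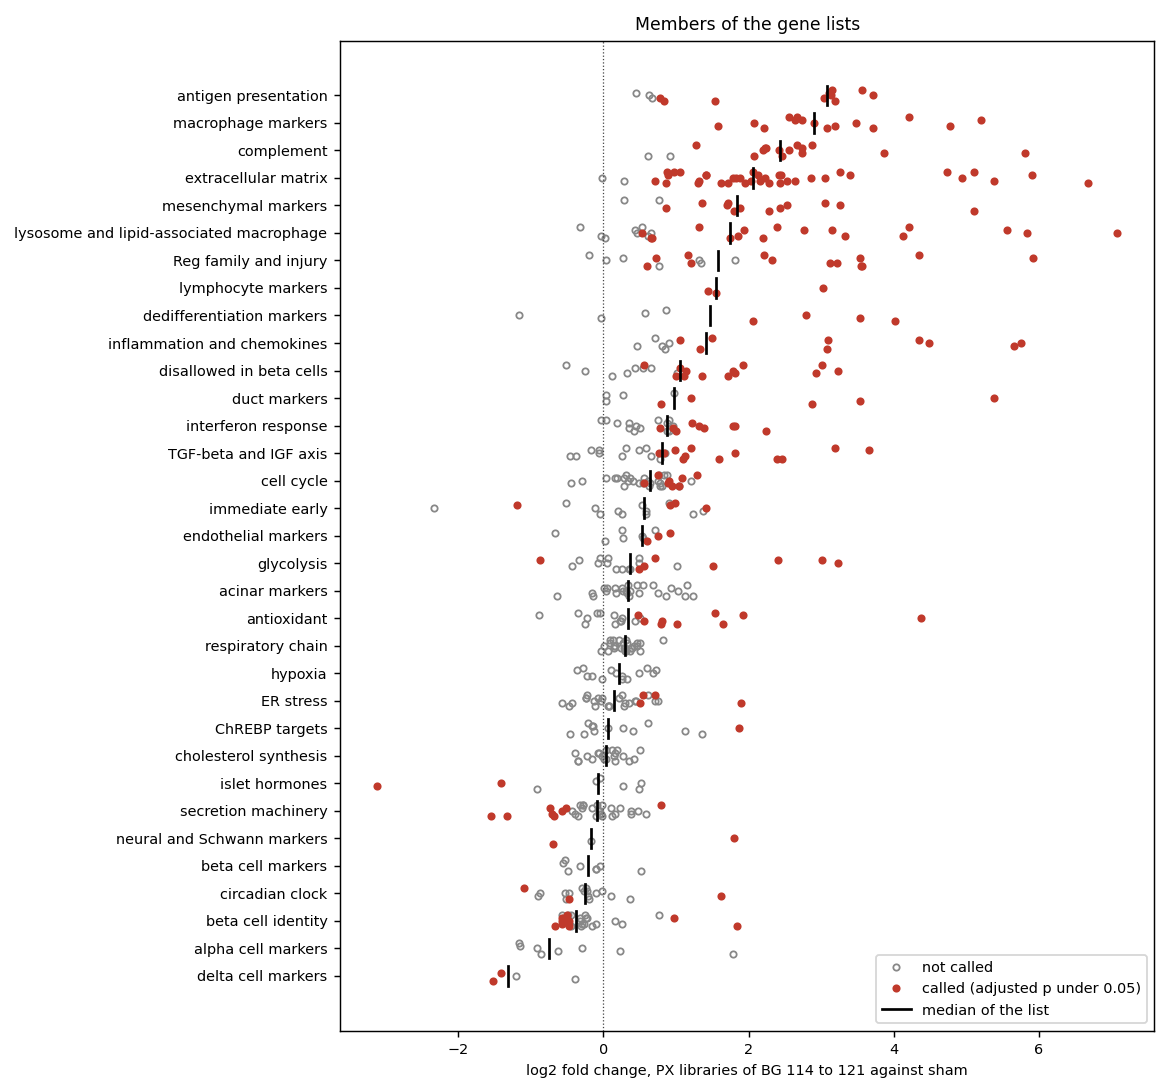
Log2 fold change of the mild PX against the sham libraries for each tested member of every list with at least 3 tested members, lists ordered by their median (black bar); filled points were called at an adjusted p under 0.05. Antigen presentation and macrophage markers lie farthest to the right, with medians of 3.08 and 2.90, and delta cell markers farthest to the left, at -1.31.

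**Figure D3:**
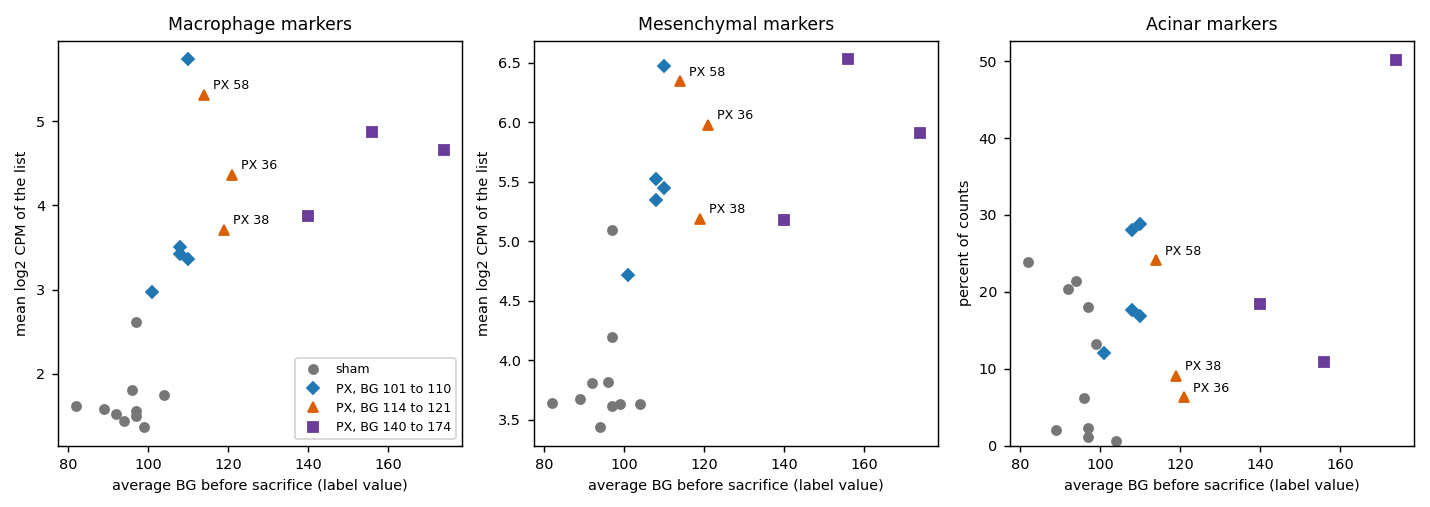
Mean log2 CPM of macrophage and of mesenchymal markers and percent of counts on acinar markers, against the BG label of each of the 21 libraries. The mild PX libraries, named beside their points, have macrophage scores of 3.71 to 5.31, all above the highest sham library (2.61), whereas their acinar shares of 6.31% to 24.1% lie mostly within the sham range.

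Injury genes of epithelium and stroma followed the same direction. Of 20 tested 13 were called higher (median 1.58). Anxa1 (annexin A1, an anti-inflammatory protein) had one of the lowest p-values named here, at 108, 85.1 and 145 CPM against 7.38 to 16.8 (log2 fold change 3.57 ± 0.20, edgeR adjusted p = 3.30e-08). S100a6 was at 235, 240 and 436 CPM against 20.8 to 53.4, Cd44, the hyaluronan receptor, at 63.4, 82.6 and 127 against 5.37 to 17.1, and Lcn2 (lipocalin-2, an iron-binding acute phase protein) at 26.4, 29.6 and 88.5 against 1.45 to 3.903. The 3 mild PX libraries were closer to one another for these genes than for Gpnmb or Mmp12. Reg genes, secreted proteins of regenerating pancreas, were uneven. Reg3g measured 10.4, 0.499 and 29.2 CPM where sham libraries had 0 to 1.36 and rose by 5.91 ± 0.89, whereas Reg3b at 247, 37.4 and 479 CPM lay within the sham range of 0.169 to 628 and was not called.

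Hormone genes of beta, alpha and PP cells did not pass the test. Ins1 measured 75563, 74009 and 75403 CPM, within the sham range of 43103 to 121038 (log2 fold change -0.10 ± 0.25, edgeR adjusted p = 0.847), and Ins2 8429, 20641 and 16339 against 9624 to 25428 (-0.05 ± 0.29). Iapp, the amylin gene co-secreted with insulin, was at 33026, 28213 and 10787 CPM against 12062 to 27772, so PX 36 and PX 38 lay above every sham library and PX 58 below every one. Gcg (glucagon) was at 4857, 4384 and 10079 CPM against 5954 to 21305 (-0.92 ± 0.41, adjusted p = 0.159 in edgeR), and Ppy at 1413, 856 and 851 against 389 to 1469. Ins1 and Ins2 are near-identical copies whose reads may be shared. No beta cell marker of 8 (median -0.22) and no alpha cell marker of 8 (median -0.74) was called; without sham 46, 3 beta cell markers were lower. Of 3 neural and Schwann markers tested, S100b rose by 1.80 ± 0.39 and Ncam1 fell by 0.70 ± 0.21, a call lost without PX 58 or PX 38, with library totals as the only scaling and with sham 46 to 50 as the only controls.

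Of 8 islet hormone genes 2 were called lower, somatostatin and ghrelin, and for both the mild PX libraries lay below every sham library. Sst measured 301 CPM in PX 36, 356 in PX 38 and 405 in PX 58, and 429 to 1281 (median 1079) in sham libraries, a fall of 1.41 ± 0.26 on the log2 scale (edgeR adjusted p = 0.00100). The lowest sham value, 429, was that of sham 46, and the next was 780. Of the delta cell markers Casr, the calcium-sensing receptor, fell as well, at 11.1, 11.8 and 16.1 CPM against 14.8 to 57.1, while Rbp4 (-1.21 ± 0.42) and Hhex (-0.40 ± 0.33) were not called. That made 2 of 4 tested delta markers lower, where 3.79% of all genes tested were lower. Sstr5, a somatostatin receptor of beta cells, was at 3.23, 4.82 and 4.55 CPM against 6.23 to 19.8 and fell by 1.58 ± 0.30. Ghrl, ghrelin, gave 0, 2 and 3 reads in PX 36, PX 38 and PX 58, against 172 reads over the 10 sham libraries (2 to 36 each). Its fitted log2 fold change of -3.12 ± 0.73 rests on few reads. Ghrl was not called with sham 46 to 50 as the only controls, nor by limma voom weighted by library quality.

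The promoter of Sst is shown as that of 1 of the 2 hormone genes that fell. Its window (RefSeq, GRCr8, chr11:90461296-90461595, plus strand) holds the cyclic AMP response element TGACGTCA, in capitals, at bases 253 to 260.
Sst: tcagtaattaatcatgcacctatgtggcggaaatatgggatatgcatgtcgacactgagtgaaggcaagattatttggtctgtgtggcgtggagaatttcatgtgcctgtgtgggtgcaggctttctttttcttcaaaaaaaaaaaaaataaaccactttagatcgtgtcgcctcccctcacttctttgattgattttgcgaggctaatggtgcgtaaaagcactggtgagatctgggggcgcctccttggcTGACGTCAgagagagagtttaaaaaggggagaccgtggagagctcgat

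**Figure D4:**
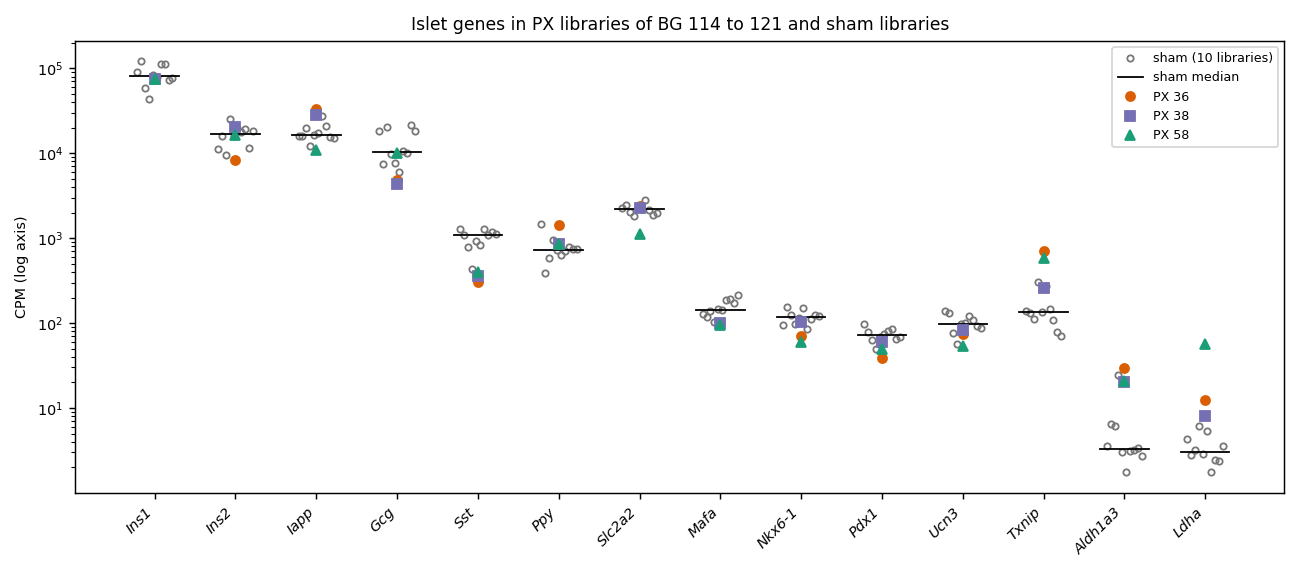
CPM on a log axis of 14 islet genes; open circles are the 10 sham libraries, the line is their median, and filled symbols are PX 36, PX 38 and PX 58. Ins1 overlaps fully with sham, Sst lies below every sham library (301 to 405 CPM against 429 or more), and Ldha lies above every one.

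Beta cell identity genes were lower by small amounts. Of 30 tested, 7 were called lower and 2 higher, with a median log2 fold change of -0.38, and 25 of the 30 had a negative value. Over all genes tested, 3.79% were called lower and 10.1% higher. Rfx6, a transcription factor of islet cells, measured 104, 100 and 56.2 CPM against 99.9 to 178 (median 146), a fall of 0.67 ± 0.18 (edgeR adjusted p = 0.0149). Pax6 was at 76.1, 135 and 106 against 137 to 205 and fell by 0.57 ± 0.15. Glp1r (the incretin receptor), Ffar1 (a fatty acid receptor), Foxo1 and Kcnj11 (the pore of the KATP channel) were also called lower, by 0.57, 0.57, 0.50 and 0.47 on the log2 scale. Pdx1 (-0.49 ± 0.17, edgeR adjusted p = 0.0672), Mafa (-0.56 ± 0.18, edgeR adjusted p = 0.0511) and Nkx6-1 (-0.52 ± 0.19, edgeR adjusted p = 0.0713) just missed the threshold, although Mafa in all 3 mild PX libraries (95.8 to 101 CPM) lay below the lowest sham library (103). Slc2a2, the glucose transporter, was at 2404, 2266 and 1131 CPM against 1845 to 2799, and Ucn3, a maturity marker, at 75.4, 82.1 and 53.1 against 56.2 to 138. Npy1r and Onecut1 were the 2 called higher, and neither was when sham 22, 24, 48, 49, 50, 73 or 74, PX 36 or PX 58 was left out.

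How many of these small falls were called changed with the libraries in the fit. Without PX 58 the lower calls over all genes also dropped, from 526 to 112. Without PX 58 none of the 30 was called lower, without sham 46 there were 12, with all 21 libraries in the fit 1 and with sham 46 to 50 alone as controls none. Leaving out sham 48 or 50 gave 3, leaving out sham 22, 47, 73 or 74 gave 4, and leaving out PX 36 gave 2. Macrophage and mesenchymal RNA was higher in the same libraries, and its part in these falls was not tested.

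Genes of secretion fell in 7 of 32 cases and rose in 1 (median -0.10). Cplx2 (complexin-2, a clamp of exocytosis) was at 115, 174 and 125 CPM against 131 to 536 and fell by 1.32 ± 0.30, Rims2 (a scaffold of the release site) at 36.7, 51.5 and 26.8 against 52.2 to 76.8 fell by 0.74 ± 0.16, and Syt12 fell by 1.54 ± 0.39. Also lower were Cacna1a and Cacna1c, calcium channel subunits, and Stx1a (syntaxin-1A). Ptprn, a granule membrane protein and diabetes autoantigen, was called higher at 1700, 1887 and 1252 CPM, all within the sham range of 718 to 1989. The Ptprn call was lost when most single libraries were left out. The count of secretion genes called lower was 0 without PX 58, 2 without PX 36 and 0 with sham 46 to 50 alone.

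The genes with the largest falls were mostly not of these lists. Cabp7, a calcium-binding protein of neurons, measured 12.5, 22.6 and 16.8 CPM against 20.1 to 91.4 (median 72.2), a fall of 1.92 ± 0.34 (edgeR adjusted p = 0.00107). Nell1, a secreted glycoprotein, was at 24.04, 33.7 and 29.4 CPM against 38.8 to 124 and fell by 1.61 ± 0.25. Sim1, a transcription factor, fell by 1.72 ± 0.30, Cntn3, a neuronal contactin, by 1.56 ± 0.26, Unc5c, a netrin receptor, by 1.55 ± 0.29, and Ndst4, a heparan sulfate enzyme, by 1.75 ± 0.33. Among genes picked after their values were seen, Scn9a (a sodium channel) was at 15.04, 11.8 and 15.5 CPM against 20.2 to 56.9, and Ryr2 (the ryanodine receptor) at 35.3, 33.9 and 29.4 against 41.4 to 131. Dnah12, an axonemal dynein, was at 8.86, 10.6 and 5.42 CPM against 11.2 to 30.1. For these 3 genes the groups did not overlap.

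Disallowed genes were called higher for 13 of 21 tested and lower for none (median 1.05). Ldha, lactate dehydrogenase A, measured 12.5 CPM in PX 36, 8.15 in PX 38 and 57.2 in PX 58 against 1.76 to 6.12 (median 3.04), a log2 fold change of 3.01 ± 0.44 (edgeR adjusted p = 2.52e-04). Hk2, a low-Km hexokinase, was at 10.4, 4.65 and 28.2 CPM against 0.784 to 2.84 (3.23 ± 0.39), Mgst1, a glutathione transferase, at 18.0, 12.0 and 33.8 against 1.60 to 4.10 (2.93 ± 0.27), and Slc16a1, the lactate and pyruvate carrier, at 4.64, 3.49 and 9.75 against 0.604 to 3.37. Rest, the repressor of neuronal genes, rose by 1.81. PX 58 was highest for 18 of the 21 genes, as it was for every macrophage marker, and macrophages and stromal cells also express Ldha, Hk2 and Pdgfra. Their part in these increases was not tested. Without PX 58, 8 were called higher, and 7 with sham 46 to 50 alone.

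The Ldha promoter is shown for its paired elements. The window (RefSeq, GRCr8, chr1:106507842-106508141, plus strand) holds CACGTG at bases 164 to 169 and TGACGTCA at bases 200 to 207, both in capitals and not overlapping.
Ldha: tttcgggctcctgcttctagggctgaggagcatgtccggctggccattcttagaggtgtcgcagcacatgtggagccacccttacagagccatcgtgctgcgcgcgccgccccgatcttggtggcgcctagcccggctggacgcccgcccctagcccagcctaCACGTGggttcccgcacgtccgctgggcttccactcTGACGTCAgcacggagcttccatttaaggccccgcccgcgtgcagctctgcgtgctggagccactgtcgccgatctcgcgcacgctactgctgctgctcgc

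Core glycolysis genes were called higher in 7 of 21 cases and lower in 1 (median 0.36), with 2 higher without PX 58 or with sham 46 to 50 alone and 4 without sham 73. Besides Hk2 and Ldha these were Slc16a3 (the lactate exporter, 2.41 ± 0.49), Pfkfb3 (1.51 ± 0.41), Pfkp (0.71), Pgk1 (0.56) and Aldoa (0.49), and Eno2, the neuronal enolase, fell by 0.88. Gapdh was at 0.06 and Pkm at -0.07. Txnip, a thioredoxin inhibitor that rises with glucose through the factor ChREBP, was the only called gene of 13 ChREBP targets. It measured 712 CPM in PX 36, 260 in PX 38 and 587 in PX 58 against 71.02 to 303 (median 134), a log2 fold change of 1.87 ± 0.40 (edgeR adjusted p = 0.00660), and PX 38 lay within the sham range. The call was lost without PX 58 and with sham 46 to 50 alone (edgeR adjusted p up to 0.0649). The lipogenic targets Acaca (-0.27) and Scd (1.36) were not called.

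Markers that dedifferentiated beta cells are known for were called higher for 4 of 8 tested. Aldh1a3, a retinaldehyde dehydrogenase, was at 29.8, 20.4 and 20.7 CPM against 1.77 to 24.5 (median 3.30), with a log2 fold change of 2.06 ± 0.59 (edgeR adjusted p = 0.0349). The highest sham value was that of sham 46, the next being 6.40, and the call was lost in 15 of the 26 alternatives. Lrat, which stores retinol in stellate cells and appears in stressed beta cells, gave 40, 11 and 22 reads against 15 reads over the 10 sham libraries. Sox9, a progenitor and duct factor, gave 13, 20 and 30 reads against 18 in all sham libraries. Vim (vimentin), a filament of stromal cells and macrophages, was at 128, 67.5 and 238 CPM against 16.6 to 38.2. Cd81 (-0.04), Fev (-1.17), Gast (0.57) and Hes1 (0.87) were not called.

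Antioxidant genes were called higher for 9 of 22 (2 without PX 58), led by Hmox1, heme oxygenase 1, at 40.2, 6.48 and 70.8 CPM against 0.636 to 5.36, with Gpx1 at 1.92 ± 0.39 and Prdx1 at 0.81 ± 0.16. Of 28 ER stress genes 4 were called higher, a share near the 10.1% of all genes tested. They were Atf3 (1.90 ± 0.36), Dnajb11 (0.71 ± 0.16), Manf (0.55 ± 0.17) and Pdia4 (0.51 ± 0.16), while Ddit3 (-0.24), Trib3 (-0.58) and Hspa5 (0.45) were not called. The count was 10 without sham 46 and 2 without any 1 of PX 36, PX 38, PX 58 and sham 24, 47, 48, 50, 73 or 74. None of 27 respiratory chain genes was called (median 0.29, 26 of them positive), where 7 were called higher without sham 46 and 2 without sham 21.

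Cell cycle genes were called higher for 8 of 34, with a median of 0.64 and 32 positive values. Of all genes tested, 10.1% were called higher and 3.79% lower, shares that also stand beside the immediate early and clock counts below. Mki67, the proliferation marker, measured 23.2, 19.8 and 26.6 CPM against 10.5 to 20.2 (0.75 ± 0.19, edgeR adjusted p = 0.0124), and Cdk1 19.5, 11.0 and 20.8 against 6.66 to 14.1 (1.09 ± 0.23). Without PX 58 no cell cycle gene was called, and without sham 46 there were 14. The immediate early genes Jun, Junb and Ier3 rose by 0.92, 0.99 and 1.42 and Nr4a1 fell by 1.19, out of 16 tested, and none of these was called without PX 58, whereas 6 rose without PX 38 and 5 without sham 48. In the clock list of 18, Bhlhe40 rose (24.7, 27.6 and 39.6 CPM against 5.09 to 19.8), and Per3 and Rora fell by 1.09 ± 0.26 and 0.47 ± 0.12, with 0 falls without PX 58. None of 20 cholesterol synthesis genes (median 0.04) and none of 14 hypoxia genes (median 0.21) was called.

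The 3 mild PX libraries often stood in the same order for genes called higher. Among the 1405 genes called higher, PX 58 was the highest of the 3 for 1018 (72.5%). The order from PX 38 through PX 36 to PX 58 held for 751 (53.5%), compared with 15.8% of all 13884 genes tested. The called genes were selected through these same 3 libraries, and many of them move together. The shares are therefore a description of 3 libraries and no test of that order. The highest BG, 121, belonged to PX 36 and the lowest, 114, to PX 58, so BG did not follow that order. Among the 526 genes called lower, PX 38 was the highest for 326 and PX 58 the lowest for 314. The widest ranges among genes of at least 10 mean CPM were those of Mmp9, Reg3g, Gpnmb, Bcat1 and Mmp12. Mmp9, a gelatinase of neutrophils and macrophages, gave 56 reads in PX 36, 0 in PX 38 and 551 in PX 58, and 0 to 2 in each sham library. Bcat1, an enzyme of branched-chain amino acids, was at 12.4, 3.49 and 100 CPM against 1.18 to 8.88.

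Against the other PX libraries the mild ones were tested directly, in a fit over all 21 libraries. None of 14327 genes was called against the near-normal PX libraries in edgeR (0%; 196 at an unadjusted p under 0.05, 107 of them higher), and none by DESeq2 or limma voom. Against the high PX libraries none was called either (0%; 987 at an unadjusted p under 0.05, 474 of them higher), nor by DESeq2 or limma voom. A p that misses the threshold does not show that the groups were alike, since with 3 libraries the errors were wide. Gpnmb differed by 0.58 ± 0.87 from the near-normal and by 1.83 ± 1.03 from the high PX libraries (log2, SE), and Cd74 by 0.25 ± 0.47 and 0.06 ± 0.53. Sst was lower by 0.35 ± 0.28 and 0.37 ± 0.31.

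The genes with the lowest p in these contrasts are named as a description. Ccl2 and Ccl7 were higher in the mild than in the near-normal PX libraries by 2.25 ± 0.66 and 1.89 ± 0.59, and Thbs1 (thrombospondin-1) by 0.93 ± 0.30. Thbs1 was at 365, 396 and 729 CPM in the mild PX libraries and at 203 to 339 in the near-normal ones, which did not overlap, with 250 to 589 in the high ones. Fam135b (-0.59 ± 0.19), RF01294 (-2.11 ± 0.71) and Pura (-0.42 ± 0.15) had the lowest p on the other side, RF01294 with 1 near-normal library, PX 44, at 283 CPM and the next at 34.2. Toward the high PX libraries, Gpd2, the mitochondrial glycerol phosphate dehydrogenase, was at 70.7, 70.1 and 62.3 CPM in the mild PX and 36.2 to 46.9 in the high PX libraries (0.65 ± 0.17, edgeR adjusted p = 0.706). Adora1, an adenosine receptor, was at 16.9 to 27.4 CPM against 6.01 to 12.7 (1.12 ± 0.30), and Taz at 39.3 to 53.3 against 22.4 to 37.9 (0.67 ± 0.18). Hexa and Plbd2, lysosomal enzymes, were lower by 0.73 ± 0.19 and 0.55 ± 0.15 and Cystm1 by 1.14 ± 0.34. For these 3 genes too the mild and the high PX libraries did not overlap. A pick by low p in the same libraries favours genes whose groups do not overlap, so that separation is no further result. The share of all genes without overlap was not counted for the contrasts between PX groups.

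Set against the same sham libraries in that fit, the near-normal PX libraries had 1183 genes higher (8.26%) and 525 lower (3.66%), and the high PX libraries 2360 (16.5%) and 2176 (15.2%). The comparisons share their sham libraries, so these counts are given side by side only. In the same fit the mild PX libraries had 1328 higher and 508 lower. The median log2 fold change of macrophage markers was 2.54 for near-normal and 2.71 for high PX libraries, and that of extracellular matrix genes 1.74 and 1.99. For beta cell identity genes it was -0.36 and -0.45, for secretion genes -0.18 and -0.57, and for acinar markers 1.001 and 2.23.

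**Figure D5:**
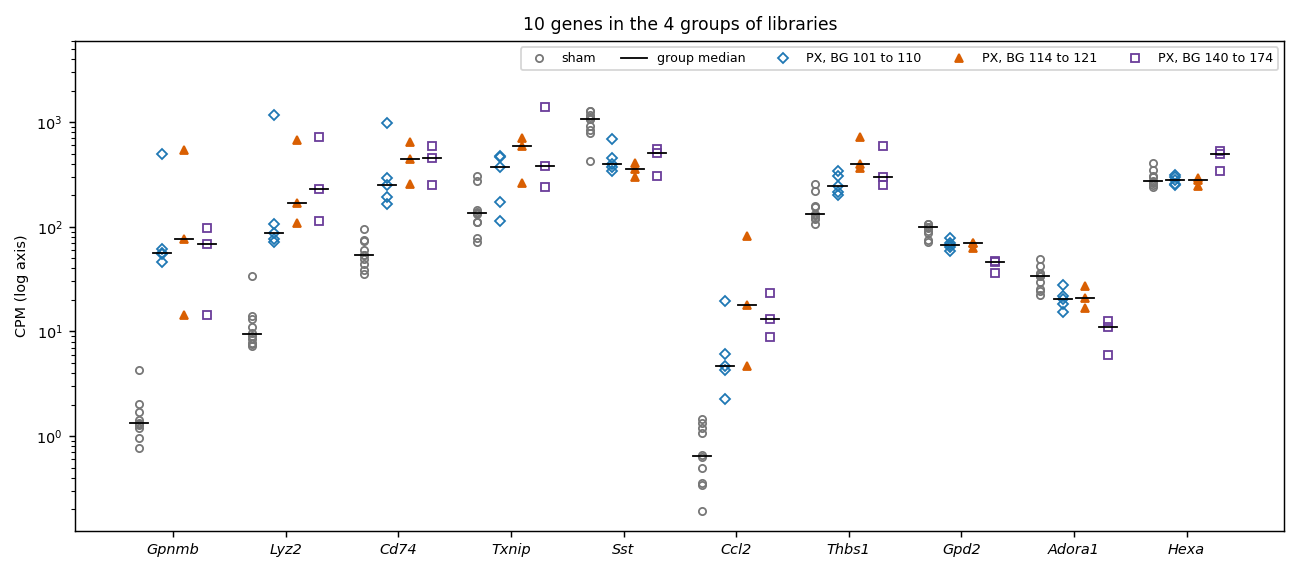
CPM on a log axis of 10 genes in each of the 21 libraries, grouped as sham, PX of BG 101 to 110, PX of BG 114 to 121 (filled triangles) and PX of BG 140 to 174, with the group median as a line. For Gpnmb, Lyz2 and Cd74 the 3 PX groups overlap one another and lie above every sham library, with sham 46 the nearest. For Cd74, PX 70 measured 166 CPM and sham 46 measured 95.2. For Thbs1 the mild PX libraries (365 to 729 CPM) lie above the near-normal ones, and for Gpd2 and Adora1 they lie above the high PX libraries. Thbs1, Gpd2 and Adora1 were picked by their low p in those contrasts, which favours such separation.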

How the data were processed

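Counts were deposited by the authors as whole numbers of reads per gene, with 28914 gene names, 1 column per library and no normalization, per the file headers. The submitters' processing notes name FastQC, Subread, featureCounts and limma without versions. Not given in the sources used here are the genome build and the aligner and strand settings. Unused was the authors' deposited table of their own comparison. Groups came from the titles and the BG characteristic.

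From the counts, edgeR 4.0.16 (R 4.3.3) was run on genes passing filterByExpr (count 10, total 15), with TMM scaling and robust quasi-likelihood fits, two-sided, with Benjamini-Hochberg adjustment over all genes tested and a threshold of 0.05. The 13 mild PX and sham libraries were fitted alone; contrasts with other PX groups used all 21 libraries in 4 groups. Standard errors are the absolute log2 fold change over the root of F. Log2 CPM used a prior count of 2.

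Alternatives were other scalings and filters, DESeq2 1.42.0, limma 3.58.1 voom (plain, and weighted by library quality), an acinar covariate, subsets of sham libraries and each library left out. The fits were tested on simulated counts. No pair of mild PX libraries and no pair of sham libraries agreed within sampling noise, and the other PX groups were not checked.

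The libraries were grouped by BG, but the choice of this group and of the 35 gene lists (23 of processes, 12 of cell types; 635 distinct genes) was made with earlier results of these data known. Named genes were 15 islet genes, the 10 highest and 10 lowest fold changes of called genes averaging 10 CPM or more, the 4 members of lowest p in each list, for each contrast with other PX libraries the 3 of lowest p in each direction, and the 5 genes of widest range; some are not reported here. Exact permutation tests covered 4 library measures. RefSeq promoters (GRCr8) were matched by symbol.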

Additional observations from a re-analysis of the deposited data

Results flagged for a closer look

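In 12 of 39 values examined among sham libraries, 1 library lay farther from the nearest other than Dixon's 95% criterion for 10 values allows (a gap above 0.466 of the range, with gene values on the log2 CPM scale). Chance gives about 1 in 20 for a single value. The 39 values share the same 10 libraries and are not independent, so that rate does not apply to their count. Sham 46 was that library in 11. It was lowest for Sst at 429 CPM (next 780), Cabp7 at 20.1 (57.6), Sim1 at 14.6 (30.1), Nell1 at 38.8 (84.9), Cntn3 at 14.9 (28.1), Unc5c at 19.6 (46.2), Syt12 at 6.67 (24.5) and Casr at 14.8 (32.2). It was highest for Aldh1a3 at 24.5 CPM (next 6.40), Postn at 11.0 (2.62) and Lyz2 at 34.0 (14.1). In each of these genes sham 46 deviated from the other sham libraries toward the mild PX libraries. Sham 50 was lowest for Itgad, at 0.127 CPM (next 0.767). Among 9 values examined in the 5 near-normal PX libraries (criterion 0.71 of the range), PX 44 was apart for RF01294 at 283 CPM (next 34.2) and PX 62 for Gpnmb at 491 CPM (next 61.3).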

How the results depend on the processing

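The counts of genes higher and lower in the mild PX than in the sham libraries, 1405 and 526, lay between 747 and 1921 and between 112 and 975 when each library was left out in turn. The lowest values of both came without PX 58 and the highest without sham 46, and without PX 36 the lower count was 259. With library totals as the only scaling 259 genes were lower, with sham 46 to 50 as the only controls 666 were higher and 66 lower, and with sham 21, 22, 24, 73 and 74 as controls 1827 were higher and 981 lower. The cause of these shifts was not tested. Higher calls made up 72.8% of all calls, and 91.0% with sham 46 to 50 alone. All other scalings, filters, tests and the acinar covariate kept both counts within 1.5 times. Against the near-normal PX libraries every alternative gave 0 calls in both directions, and against the high PX libraries every one gave 0 except 2 lower genes without the high PX library 41. Of 140 named genes fitted 103 were called, and 65 of these were called in every alternative. No value of these genes changed its sign while called. No paired analysis was possible because all animal numbers differ, so no groups share a replicate number. Depth limits the low genes, such as Ghrl with 5 reads over the 3 mild PX libraries.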

Other observations

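Gene groups outside the lists were looked at after their values were seen, and are given as values. Integrins of leukocytes were higher in the mild PX than in the sham libraries: Itgb2 measured 27.1 CPM in PX 36, 14.0 in PX 38 and 170 in PX 58 against 1.15 to 9.51, and Itgax 40.5, 14.3 and 115 against 1.88 to 8.75. Both keep the order in which PX 58 is highest and PX 38 lowest. Among lower genes, Rfx3, a regulator of cilia and of islet cells, measured 19.8, 22.1 and 12.0 CPM against 20.5 to 41.9 and fell by 0.83 ± 0.21 on the log2 scale (edgeR adjusted p = 0.0143). Nrxn3, a synaptic adhesion gene, measured 3.66, 11.8 and 8.13 CPM against 11.3 to 23.8 and fell by 1.21 ± 0.28. Dnah9, an axonemal dynein, measured 13.6, 23.9 and 13.7 CPM against 21.3 to 47.6, and PX 38 lay within the sham range.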
